A study of Homo sapiens with 6 samples.

Results

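The genes described here mostly encode core proteins of the spliceosome and of its small nuclear ribonucleoproteins (snRNPs). They were chosen by symbol alone, as every listed gene whose symbol starts with SNRP, with LSM or PRPF and a digit, or with SF3A or SF3B, together with U2AF1, U2AF2, SF1, SNU13, AQR, CDC5L, PLRG1, SART1 and SART3. This gave 56 of the 17646 listed genes. The 25 with an SNRP or LSM symbol are called the small members here and the 22 PRPF or SF3 genes the large members. A further 9 were added by name. These classes follow the symbols, and their protein sizes overlap. The small members include SNRPA, SNRPA1, SNRPB2 and SNRPC, which are particular to the U1 or U2 snRNP and belong to no Sm or LSM ring. They also include LSM10, LSM11, LSM12, LSM14A and LSM14B, whose products work outside the LSM ring of the spliceosome. USP39, another spliceosome gene, was left out because it belongs to the ubiquitin-specific proteases. RNA was sequenced from MDA-MB-231 cells, an established human line of triple negative breast cancer, 48 h after transfection with a control siRNA (siControl, 3 libraries) or with an siRNA against USP32 (siUSP32, 3 libraries), and the labels name no other allele or treatment. No siRNA sequence is used here. The labels do not tell whether replicate libraries stem from independent cultures, and the p-values therefore rest on a library-to-library spread that may be only technical. The comparison asked which spliceosome transcripts differ after depletion of USP32, a deubiquitinating enzyme.

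The spliceosome removes introns from pre-mRNA. Each of the snRNPs U1, U2, U4 and U5 carries a ring of Sm proteins on its RNA, while U6 carries a ring of LSM proteins. U1 marks the 5′ splice site, the U2AF proteins and SF1 mark the 3′ end of the intron, and U2 with its SF3A and SF3B subunits binds the branch point. The tri-snRNP of U4, U6 and U5 then joins with its PRPF proteins, and a complex around PRPF19 (the NTC) holds the active machine together. All proliferating cells depend on this machinery.

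The deposited values are FPKM (fragment counts divided by transcript length and by library size). The read depth is unknown, so counting error cannot be given. FPKM summed to 686376 to 694831 per siControl library and to 855573 to 948641 per siUSP32 library. USP32 (Entrez 84669, chromosome 17, 60179094 to 60422470, minus strand of GRCh38) was at 7.5, 7.48 and 8.32 FPKM in siControl and at 2.0, 1.88 and 2.01 in siUSP32 (log2 difference in limma with adjusted p = 8.57e-08), which checks the labels. For the labelled cell type, ESR1 was at 0.63 FPKM or less in each library, VIM was at 1077 or more, and PGR was not among the listed genes. ERBB2 was at 11.72 to 12.2 in siControl, near the median tested gene (11.9 to 11.99), and at 3.54 to 3.64 in siUSP32. CD44 was at 422.88 to 426.32 FPKM in siControl and at 130.77 to 138.41 in siUSP32. AXL was at 63.83 to 65.4 and at 16.21 to 17.17. In limma VIM was higher in siUSP32, while ERBB2, CD44 and AXL were lower (adjusted p under 0.05). Of 8 markers of blood, endothelial, fibroblast and liver cells 7 were listed, summing to 1.4 to 1.95 FPKM in siControl and 0.62 to 0.65 in siUSP32, with none above 1.1. In bulk libraries, a change in RNA per cell and a change in the make-up of the culture cannot be told apart.

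Differences below are siUSP32 minus siControl in log2(FPKM + 1), tested with limma on the 12003 genes whose mean reached 1 FPKM, and a gene rose or fell where its Benjamini-Hochberg adjusted p was under 0.05. Of the 56 members 55 passed that filter. Among them 34 rose and 8 fell, while the other 13 missed the threshold. Over all tested genes 33.3% rose and 41.3% fell (74.6% in either direction), so the members rose at 61.8% and fell at 14.5% on a background in which most genes changed. The median difference was 0.39 for the members and -0.06 for all tested genes. Without siUSP32 library 2, which had the highest FPKM sum, 35 rose and 8 fell. That library held the highest siUSP32 value for 26 of the 34 members that rose and the lowest for 6 of the 8 that fell.

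How many members rose depended on scaling. With each library rescaled to the same sum (TPM) the median of all genes moved by -0.33, and 22 members rose and 22 fell, against 14.3% and 62.1% of all genes. With median-ratio scaling 39 rose and 5 fell (all genes 40.9% and 34.7%). After quantile normalization 34 rose and 11 fell (all genes 43.8% and 30.0%, 73.8% in either direction). Relative to the median of all genes, 45 of 55 members lay above it as deposited, 43 by TPM, 45 with median-ratio scaling and 38 after quantile normalization. Across all of these scalings and a correction for transcript length described below, 21 members were called higher each time and 3 lower each time (PRPF4B, SNRPE and U2AF2). The same rule took 12.5% of all genes as higher and 23.7% as lower.

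**Figure D1:**
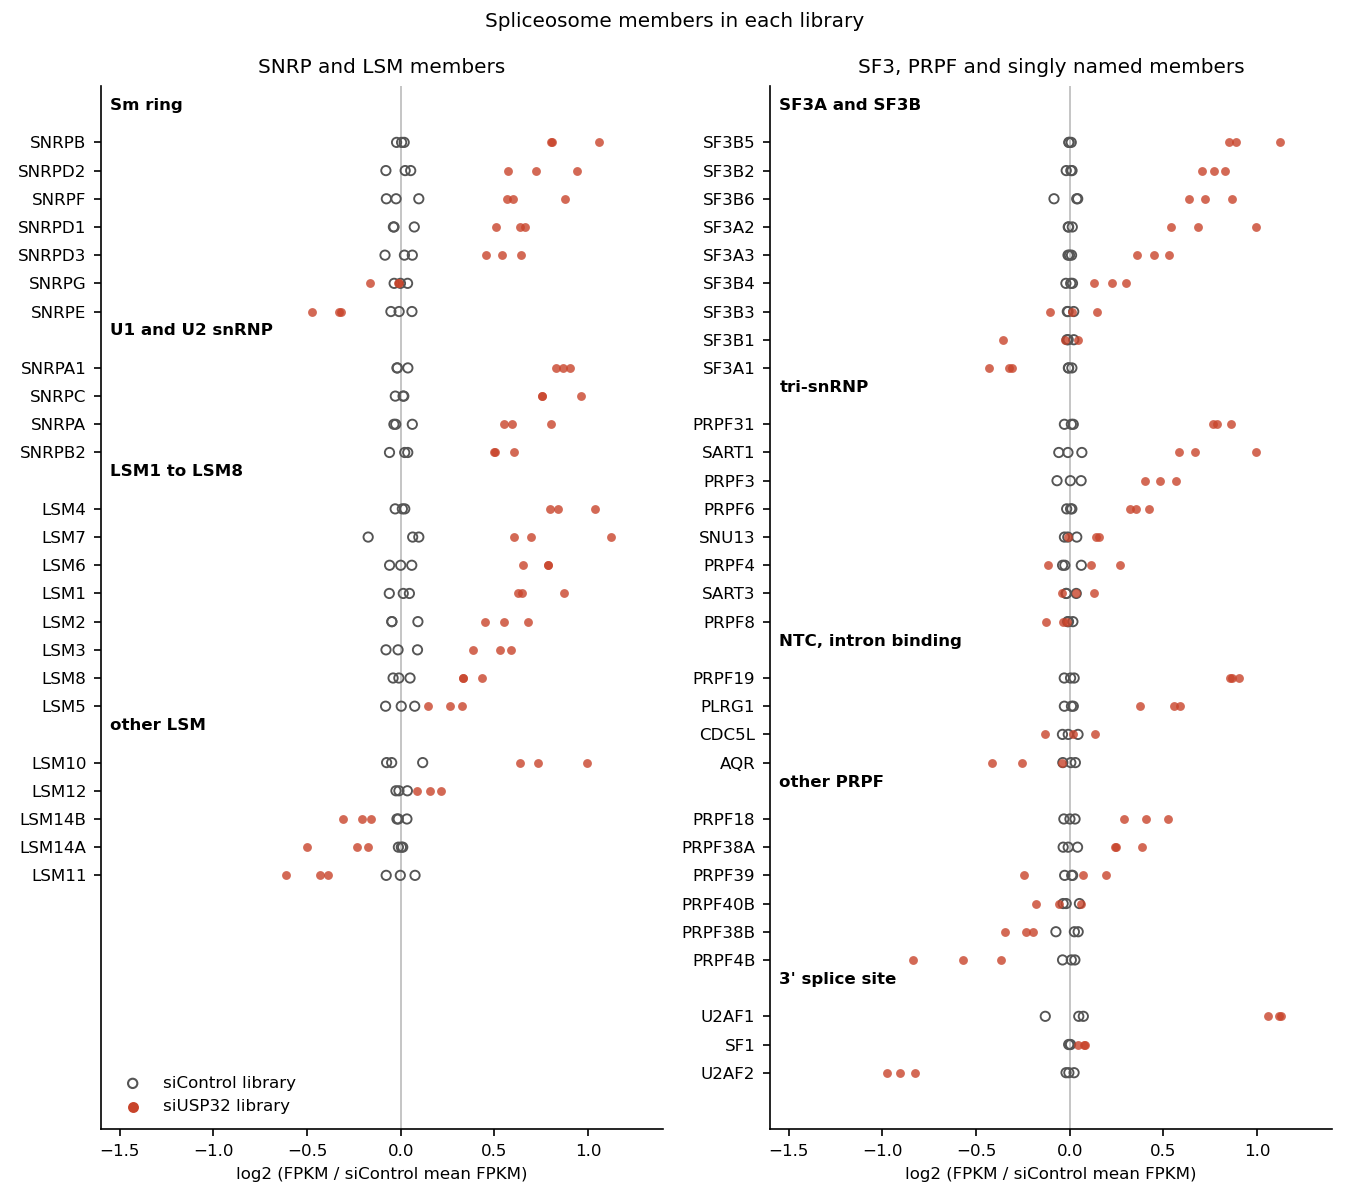
Each point is 1 library, placed at the log2 ratio of its FPKM to the siControl mean of that gene, with members grouped by role. Open circles are siControl and filled circles siUSP32 libraries; SNRPN, which was below the filter, is left out. Members whose filled points lie right of every open point include all of LSM1 to LSM8 and 5 of the 7 Sm-ring genes shown, while U2AF2, PRPF4B and SNRPE lie to the left.

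The Sm proteins form the ring on which each spliceosomal snRNA is packaged, 1 copy each of SNRPB (or SNRPN), SNRPD1, SNRPD2, SNRPD3, SNRPE, SNRPF and SNRPG. Of the 7 that were tested 5 rose, SNRPE fell and SNRPG did not pass, so the partners in 1 ring divided. Among all tested genes 33.3% rose and 41.3% fell. SNRPB (Entrez 6628, chromosome 20, 2461634 to 2470853, minus strand of GRCh38) was at 450.32, 458.78 and 463.15 FPKM in siControl and at 796.67, 951.86 and 800.33 in siUSP32. The groups did not overlap, which held for 77.8% of all tested genes, and the mean was 1.86-fold higher (log2 difference 0.89 ± 0.07 SE, limma adjusted p = 4.70e-06). SNRPD2, at 545.46, 507.92 and 556.74 FPKM in siControl, reached 884.99, 1028.6 and 797.81 in siUSP32. Its rise was 1.68-fold (0.74 ± 0.09, limma adjusted p = 5.48e-05). SNRPF, a partner of SNRPE and SNRPG in the ring, went from 376.47, 363.2 and 409.49 FPKM to 580.99, 703.07 and 567.17, a 1.61-fold rise. The remaining pair that rose was less abundant. SNRPD1 was at 24.21, 26.09 and 24.15 FPKM and then at 38.54, 39.31 and 35.25, a 1.52-fold rise, and SNRPD3 at 30.73, 31.64 and 28.6 and then at 44.02, 47.32 and 41.54, a 1.46-fold rise. All 5 kept their direction and call with each of the 15 alternative settings that were run. Exons of SNRPB and of SNRPD3 overlap another annotated gene on the same strand, so reads may be shared with it.

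SNRPE (Entrez 6635, chromosome 1, 203861603 to 203870550, plus strand of GRCh38) was the Sm-ring gene that fell. It was at 71.7, 73.91 and 77.5 FPKM in siControl and at 59.65, 59.07 and 53.62 in siUSP32, with no overlap (1.29-fold lower, log2 difference -0.37 ± 0.06, limma adjusted p = 3.51e-04). SNRPG was at 349.63, 358.98 and 341.58 FPKM and then at 346.65, 348.41 and 312.59, and its groups overlapped (-0.06 ± 0.06, limma adjusted p = 0.347). SNRPG was called lower with TPM (-0.43), quantile normalization (-0.40) and the correction for length (-0.60). A ratio of FPKM values does not change when a library is multiplied by 1 factor, though quantile normalization and the length correction do move it. The ratio of SNRPE to SNRPF FPKM was 0.194 ± 0.00790 in siControl and 0.0937 ± 0.00935 in siUSP32 (SD, n = 3 each, 2-sided exact permutation p = 0.1, the smallest that 3 against 3 libraries allow). That of SNRPG to SNRPF was 0.917 ± 0.0778 and 0.548 ± 0.0506 (exact permutation p = 0.1), and these gene pairs were chosen after their values were seen. Both SNRPE and SNRPG have processed copies elsewhere in the genome, 9 and 20 pseudogenes by name in GENCODE 29, so reads may be shared with them and their values are uncertain. SNRPC has 18 and SNRPF 4, and both rose; the part of pseudogenes in these values was not tested.

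Transcript levels of ring partners were far from equal in both groups. The highest was 19.5 to 23.1 times the lowest among 7 genes in siControl libraries and 22.7 to 26.2 times in siUSP32 libraries. SNRPD1 was the lowest in each library, and SNRPD2 the highest in all but siUSP32 library 3, where SNRPB was. These are ratios of FPKM, a per-length unit, and the transcript length the authors divided by is not given in the sources used here. SNRPN, the paralog of SNRPB that neurons use in its place, was listed at 0, 0 and 0.08 FPKM in siControl and at 0.25, 0.26 and 0.32 in siUSP32. It stayed below the filter and shares exons with SNURF. With no filter it was called higher (log2 difference 0.32, limma adjusted p = 4.97e-04), at levels of at most 0.32 FPKM.

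Transcripts for proteins particular to U1 and U2 followed the majority of the ring, with 4 of 4 higher, against 33.3% of all tested genes. SNRPA1, the U2 A′ protein, was at 61.79, 61.89 and 64.33 FPKM in siControl and at 111.15, 117.07 and 114.22 in siUSP32, without overlap (1.82-fold, log2 difference 0.85 ± 0.05, limma adjusted p = 3.21e-07). SNRPC, a U1 protein that helps U1 bind the 5′ splice site, went from 155.32, 150.9 and 155.72 FPKM to 259.85, 300.4 and 259.45 (1.77-fold, 0.82 ± 0.06, limma adjusted p = 3.45e-06). SNRPA, the U1 A protein, rose 1.57-fold from a mean of 58.4 to 91.7 FPKM. SNRPB2, its U2 counterpart, rose 1.45-fold from 38.4 to 55.6 FPKM, but did not pass by TPM (log2 difference 0.16).

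LSM2 to LSM8 form the ring of U6, and LSM1 replaces LSM8 in a cytoplasmic ring that acts in mRNA decay. All 8 genes rose, with differences from 0.24 to 0.88 and no overlap between the groups for any of them. Of all tested genes 33.3% rose, and 34.6% were higher in siUSP32 without overlap. By TPM 5 of the 8 rose (all genes 14.3%) and LSM3 (0.13), LSM5 (-0.12) and LSM8 (-0.01) did not pass. With the length correction 5 of the 8 rose as well (all genes 35.1%), without LSM2 (0.04), LSM5 (0.13) and LSM8 (-0.12). By quantile normalization LSM5 (0.14) did not pass, and 43.8% of all genes rose. LSM4 was at 91.89, 92.71 and 89.48 FPKM in siControl and at 163.46, 187.11 and 158.38 in siUSP32 (1.86-fold, limma adjusted p = 2.61e-06). LSM6 went from 25.84, 24.8 and 26.92 FPKM to 44.51, 44.58 and 40.57 (1.67-fold, limma adjusted p = 4.86e-06). LSM7 rose 1.77-fold from a mean of 86.9 FPKM and LSM1 1.65-fold from 59.1 FPKM. LSM8, the member that sets the nuclear ring apart, was the least abundant at 2.39 ± 0.0764 FPKM in siControl and 3.07 ± 0.127 in siUSP32, and its difference of 0.27 was -0.12 with the length correction.

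The other LSM genes, whose products work outside the U6 ring, divided. LSM10, a subunit of the U7 snRNP that processes histone mRNA, was at 58.82, 57.73 and 65.97 FPKM in siControl and at 101.13, 121.25 and 94.46 in siUSP32 (1.74-fold higher, limma adjusted p = 5.45e-05). LSM11, its partner in U7, was at 3.93, 4.15 and 3.73 FPKM and then at 3.01, 2.57 and 2.92, lower with no overlap (-0.37 ± 0.07, limma adjusted p = 0.00172), but it stood at 0.03 by quantile normalization and at 0.06 once corrected for length. So the U7 partners went in opposite directions as deposited. LSM14A, an mRNP protein of processing bodies, fell from 148.8, 147.19 and 149.57 FPKM to 126.14, 104.95 and 131.42 (-0.30, limma adjusted p = 0.00672). LSM14B fell from 35.68, 34.39 and 34.56 FPKM to 31.29, 28.2 and 30.27 (-0.22, limma adjusted p = 0.00609), and both calls were lost with median-ratio scaling (-0.16 and -0.08). LSM12 had a mean of 59.7 FPKM in siControl and 66.4 in siUSP32; its rise of 0.15 turned to a fall by TPM (-0.22), and it lost its call with quantile normalization (0.00), with the length correction (0.10) and without siControl library 1, without siControl library 3 or without siUSP32 library 1. In individual libraries it was at 59.32, 61.2 and 58.67 and then at 66.44, 69.42 and 63.38 FPKM.

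Among the 9 SF3A and SF3B subunits, which hold U2 on the branch point, 6 rose, SF3A1 fell, and SF3B1 and SF3B3 did not pass the test. For comparison, 33.3% of all tested genes rose and 41.3% fell. SF3B2 was at 83.01, 81.25 and 82.65 FPKM in siControl and at 134.42, 146.2 and 140.39 in siUSP32, far apart (1.70-fold higher, log2 difference 0.76 ± 0.05, limma adjusted p = 9.11e-07). SF3B5, the smallest SF3B subunit with 86 residues, went from 173.96, 175.29 and 173.71 FPKM to 322.63, 379.37 and 313.77 (1.94-fold, 0.95 ± 0.07, limma adjusted p = 2.74e-06). SF3B6, which lies next to the branch point adenosine, rose 1.68-fold from 637 ± 31.1 to 1066 ± 85.5 FPKM and was the most abundant member in siUSP32. SF3A2 rose 1.69-fold and SF3A3 1.37-fold, though SF3A3 did not pass by TPM (0.07). SF3B4 went from 89.6 to 104 FPKM, a rise of 0.22 that was a fall by TPM (-0.15) and lost its call with quantile normalization (-0.01) and the length correction (0.07).

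SF3B1 is the scaffold of SF3B and the subunit most often mutated in cancers. It was at 66.37, 66.66 and 68.05 FPKM in siControl and at 65.87, 52.33 and 69.0 in siUSP32, overlapping groups in which library 2 alone was low (-0.11 ± 0.09, limma adjusted p = 0.299, and a difference of 0.01 without that library). With the length correction SF3B1 was higher (0.32), and with TPM (-0.48) and quantile normalization (-0.26) lower. SF3B3 was at 18.1 and 18.4 FPKM (0.02), higher with the length correction (0.56) and median-ratio scaling (0.15) and lower with TPM (-0.34). SF3A1 was at 18.67, 18.43 and 18.45 FPKM and then at 14.94, 13.76 and 14.82, a fall of -0.33 (limma adjusted p = 5.16e-04) that was 0.00 with the length correction. The ratio of SF3B2 to SF3B1 FPKM was 1.23 ± 0.0197 in siControl and 2.29 ± 0.437 in siUSP32 (SD, n = 3 each, exact permutation p = 0.1), and this pair was chosen after its values were seen.

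**Figure D2:**
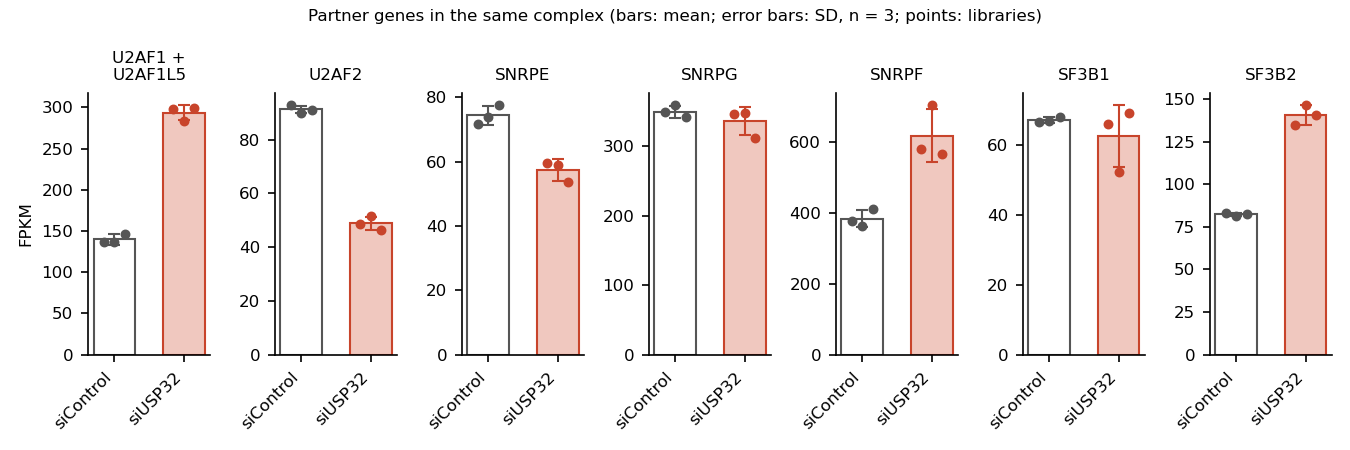
FPKM of genes whose products share a complex, as the mean (bar), SD over 3 libraries (error bar) and single libraries (points), with a separate axis from 0 for each gene. U2AF1 with its copy U2AF1L5 lies at 283 to 299 in siUSP32 against 136 to 147 in siControl, while U2AF2 lies lower in siUSP32, and SNRPE and SNRPG do not share the rise of SNRPF.

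The subunits of the U2AF heterodimer went in opposite directions. U2AF1, the small subunit that reads the AG at the end of the intron, was at 136.09, 118.22 and 133.81 FPKM in siControl and at 282.45, 280.26 and 269.88 in siUSP32 (Entrez 7307, chromosome 21, 43092956 to 43107587, minus strand of GRCh38). This 2.15-fold rise was the largest of any tested member as deposited (1.10 ± 0.06, limma adjusted p = 3.83e-07). GRCh38 holds a second annotated copy, U2AF1L5 (chromosome 21, 6484623 to 6499261), whose listed values of 0.14, 18.06 and 13.08 in siControl and 15.74, 2.92 and 29.21 in siUSP32 had no pattern by group. Reads may be divided between the copies, so U2AF1 alone is uncertain. Their sum was 136, 136 and 147 FPKM in siControl and 298, 283 and 299 in siUSP32, a 2.10-fold rise. The SD of the sum was 6.14 in siControl and 8.94 in siUSP32, against 9.73 and 6.71 for U2AF1 alone.

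U2AF2, the large subunit that binds the polypyrimidine tract, fell (Entrez 11338, chromosome 19, 55654146 to 55674715, plus strand of GRCh38). It was at 92.73, 90.02 and 90.96 FPKM in siControl and at 48.74, 51.41 and 46.46 in siUSP32, without overlap (1.87-fold lower, -0.89 ± 0.05, limma adjusted p = 5.17e-07). This was the largest fall of any tested member as deposited, and the direction and call of U2AF1 and of U2AF2 held in each of the 15 alternatives. The ratio of the summed U2AF1 copies to U2AF2 was 1.53 ± 0.0747 in siControl and 6.02 ± 0.472 in siUSP32 (SD, n = 3 each, exact permutation p = 0.1), 3.93-fold higher within libraries. SF1, which binds the branch point with U2AF before U2 arrives, had 109 ± 0.390 FPKM in siControl and 114 ± 1.63 in siUSP32, without overlap, and missed the threshold (0.07, limma adjusted p = 0.188). It was called lower by TPM (-0.30) and quantile normalization (-0.17) and higher with median-ratio scaling (0.20) and with the length correction (0.13).

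In the tri-snRNP 4 of 8 genes rose and 0 fell, against 33.3% and 41.3% of all tested genes. By TPM 2 rose and 3 fell (all genes 14.3% and 62.1%), and with median-ratio scaling 7 rose and 0 fell (all genes 40.9% and 34.7%). By quantile normalization 5 rose and 1 fell (all genes 43.8% and 30.0%). With the length correction 6 rose and 1 fell (all genes 35.1% and 35.1%). PRPF31, which bridges U4 and U6 to U5, was at 29.51, 28.76 and 29.72 FPKM in siControl and at 49.91, 53.2 and 50.63 in siUSP32, a clear separation (1.75-fold, log2 difference 0.78 ± 0.05, limma adjusted p = 8.65e-07). PRPF3, a partner of PRPF4 in the U4/U6 snRNP, went from 31.86, 34.83 and 33.47 FPKM to 44.13, 49.42 and 46.61 (log2 difference 0.47 ± 0.06, limma adjusted p = 8.35e-05), but did not pass by TPM (0.11). SART1 rose 1.70-fold from 31.1 to 52.7 FPKM. PRPF6 rose 1.29-fold, a difference of 0.36 that was at 0.00 by TPM. Members that did not pass included PRPF8, the U5 protein at the heart of the active site, at 55.6 ± 0.579 and 53.4 ± 2.16 FPKM (-0.06). PRPF8 was called lower by TPM (-0.42) and quantile normalization (-0.18) and higher with the length correction (0.41). PRPF4 (51.5 and 55.2 FPKM), SNU13, which binds U4 snRNA (74.1 and 79.2 FPKM), and SART3, which recycles U4 and U6 (log2 difference 0.04), did not pass either. With median-ratio scaling PRPF4 (0.23), SNU13 (0.23) and SART3 (0.17) were called higher. By TPM SNU13 (-0.27) and SART3 (-0.31) were called lower. With the length correction SNU13 was lower (-0.22) and SART3 higher (0.25), and SART3 was also higher by quantile normalization (0.22).

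Of the NTC and intron-binding genes 2 of 4 rose and 0 fell, against 33.3% and 41.3% of all tested genes. PRPF19, the ubiquitin ligase after which the complex is named, was at 61.39, 63.68 and 62.84 FPKM in siControl and at 113.38, 114.23 and 117.04 in siUSP32, with little spread in either group (1.83-fold, 0.86 ± 0.04, limma adjusted p = 2.24e-07). PLRG1, a subunit of the same complex, went from 25.55, 26.41 and 26.23 FPKM to 38.3, 33.79 and 39.19 (1.42-fold, limma adjusted p = 1.03e-04), and lost its call by TPM (0.13). CDC5L, its other core subunit here, was at 18.5 and 18.7 FPKM (0.01, limma adjusted p = 0.920), and was called lower by TPM (-0.35) and higher with the length correction (0.43). AQR, a helicase that binds introns, was at 6.47 and 5.53 FPKM without overlap (-0.20, limma adjusted p = 0.0587), was called lower by TPM (-0.53) and higher with the length correction (0.34).

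Of the remaining PRPF genes 2 of 7 were higher, 2 lower and 3 not past the test. The share of 28.6% higher is near the 33.3% of all tested genes, of which 41.3% fell. PRPF4B, a kinase of the spliceosome, fell from 13.06, 13.49 and 13.67 FPKM to 9.03, 7.52 and 10.39 (-0.54 ± 0.10, limma adjusted p = 8.73e-04), in each alternative. PRPF38B fell from 22.36, 24.28 and 23.94 FPKM to 20.05, 18.54 and 20.52 (-0.24, limma adjusted p = 0.00519), while PRPF38A, its paralog, rose from 24.51, 24.97 and 25.85 to 29.8, 29.68 and 32.82 (0.28, limma adjusted p = 0.00177). These paralogs did not overlap between groups, but PRPF38B lost its call with the length correction (-0.08) and with median-ratio scaling (-0.11), and PRPF38A was at -0.08 by TPM. PRPF18, which acts in the second step of splicing, rose from 21.02, 21.91 and 21.5 FPKM to 28.47, 26.28 and 30.89 (0.39, limma adjusted p = 5.00e-04), with calls lost by TPM (0.04) and the length correction (0.14). The U1-associated PRPF39 and PRPF40B had differences of 0.01 and -0.04 and did not pass, though TPM called PRPF39 (-0.33) and PRPF40B (-0.35) lower and quantile normalization called PRPF39 (0.29) and PRPF40B (0.35) higher.

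Small and large members differed in their counts as deposited. Over all tested genes 33.3% rose and 41.3% fell, with a median of -0.06. Of 24 small members 19 rose, 4 fell and 1 did not pass, with a median of 0.57. Without LSM10, LSM11, LSM12, LSM14A and LSM14B, 17 of 19 rose and 1 fell, with a median of 0.64. Of 22 large members 12 rose, 3 fell and 7 did not pass, with a median of 0.25. Their transcripts also differ in length, with a median of 1505 bases (529 to 6584) for the small and 2886 bases (693 to 9720) for the large members in GENCODE 29, against 3049 over all tested genes. The encoded proteins have a median of 124.5 residues (76 to 463) and 607.5 residues (86 to 2335). Over the 55 members the difference had a Pearson r of -0.51 and a Spearman rho of -0.57 with transcript length, against -0.45 and -0.52 over all 11965 tested genes with a length. These are correlations across genes of the same 6 libraries, given as a description.

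All tested genes were then divided by length into 5 bins of 2393 genes. In the shortest bin, with transcripts of up to 1762 bases, the median over all genes was 0.43, 68.1% rose and 12.8% fell. There the 13 small members had a median of 0.71, with 11 higher and 1 lower, and the 3 large members, SF3B5, SF3B6 and PRPF18, had a median of 0.74, with 3 higher. In the longest bin, from 5264 bases, the median over all genes was -0.46, 8.86% rose and 72.2% fell. The 4 large members there had a median of -0.02, with 1 higher and 0 lower. LSM11 was the small member there. From the shortest to the longest bin, 13 of 19, 11 of 12, 9 of 10, 5 of 7 and 7 of 7 members exceeded the median of all genes in their bin, 45 of 55 in all.

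**Figure D3:**
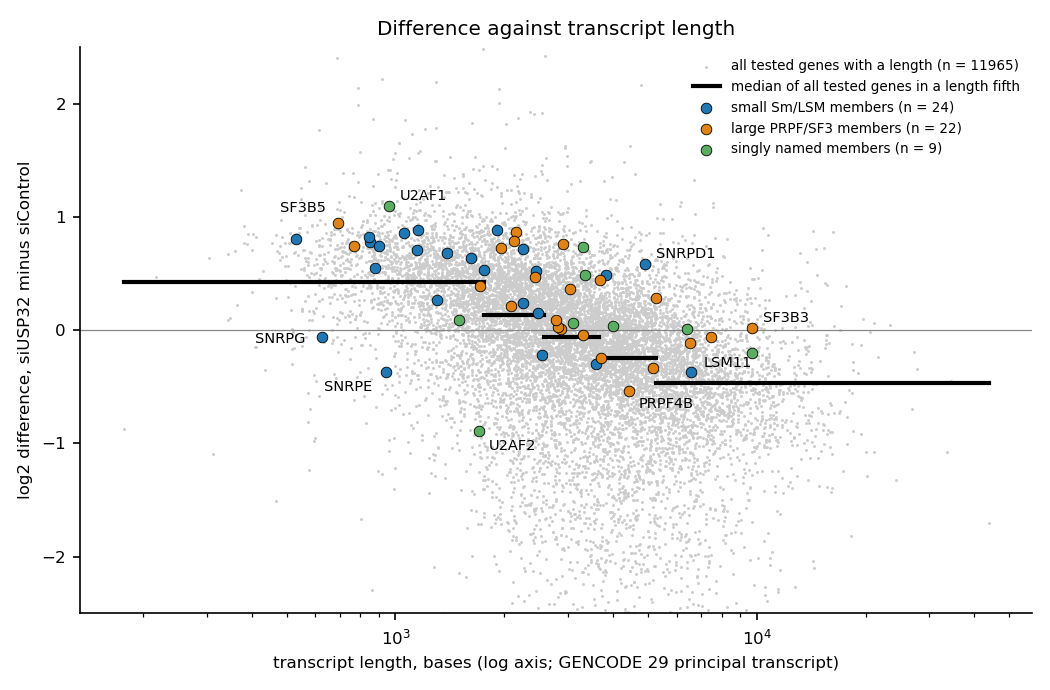
The log2 difference (siUSP32 minus siControl) of each tested gene against its transcript length on a log axis, with members coloured by class and black lines at the median of all tested genes in each of 5 length bins. The lines step down from 0.43 to -0.46, most members lie above them, and U2AF2, SNRPE and SNRPG lie below; 122 genes lie outside the plotted range of 2.5 in either direction.

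With each library corrected for length, the large members had the higher median difference. Of the small members 15 rose and 4 fell, with a median of 0.27, and of the large members 13 rose and 1 fell, with a median of 0.36. All genes then had a median of 0.01, with 35.1% higher and 35.1% lower (70.2% in either direction). Within libraries the change between the groups also took the opposite sign, while the small members kept the higher mean throughout. The mean log2(FPKM + 1) of the small members minus that of the large members was 0.656, 0.657 and 0.641 in siControl and 0.833, 0.937 and 0.711 in siUSP32. The groups did not overlap, and the mean went up by 0.18. With the length correction it was 0.796, 0.796 and 0.782 in siControl and 0.712, 0.720 and 0.626 in siUSP32, lower by -0.11, again without overlap. After quantile normalization the change was 0.07 and the groups overlapped. The change of small relative to large members thus had opposite signs as deposited and after the correction, and no test was made over these chosen members.

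**Figure D4:**
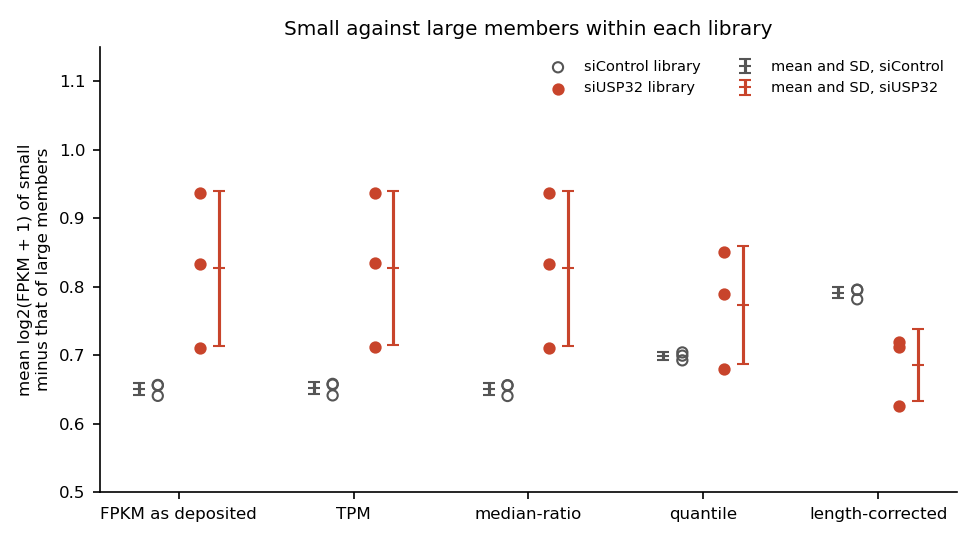
Mean log2(FPKM + 1) of the 24 small members minus that of the 22 large members, for each library (points), with the mean and SD of each group (marks and error bars), for FPKM as deposited, 3 other scalings and the length correction; the axis starts at 0.5. siUSP32 libraries lie above siControl as deposited, by TPM and with median-ratio scaling, and below with the length correction.

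Calls after the length correction are given here for some members, when 35.1% of all genes were higher and 35.1% lower. How far genes of similar length spread after the correction was not computed. Each corrected value depends on the length of the annotated transcript taken for that gene. Whether the cells express that transcript was not tested. SNRPD1, whose transcript of 4909 bases is long for a protein of 119 residues, was at 0.89 after correction, U2AF1 at 0.60, SART1 at 0.83, SF3B2 at 0.79 and PRPF19 at 0.73, all called higher. SNRPE (-0.87), SNRPG (-0.60), U2AF2 (-1.14) and PRPF4B (-0.28) were called lower. LSM2, at 0.55 as deposited, was at 0.04 and lost its call.

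Promoter windows of the RefSeq table (GRCh38.p14, 250 bases before to 50 after the start) were available for 46 of the 56 members. They were searched on both strands for CCGGAAG (the core bound by ETS factors), CCAAT, the E-box CACGTG, the TEAD motif GGAATG through which YAP acts, and TGATGNAA (a composite of ATF4 and C/EBP factors, with N any base). The ETS core was in 47.8% of member windows, 9 of 21 small and 9 of 18 large, against 19.9% of the windows of tested genes and 10.7% of all windows. Of 22 tested members with it 16 rose and 4 fell, and of 23 without it 14 rose and 3 fell. Over all tested genes 33.3% rose and 41.3% fell. Calls of other genes with the motif were not counted. CCAAT was in 43.5% of member windows against 36.8% of those of tested genes, CACGTG in 2.17% against 10.5%, GGAATG in 6 of the 46 windows against 10.6% and TGATGNAA in 4.35% against 1.6%. A match is a description of letters and not of binding. In 24 of the 46 windows the table's start lay within 100 bases of the start of the GENCODE gene.

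Windows of 4 of these members that rose are printed because SNRPB, SNRPA1 and SNRPC hold the ETS core while U2AF1, the largest rise as deposited, holds none of the motifs. They read 5′ to 3′ along the gene, and capitals mark matches to any motif searched. In SNRPC a pair of ETS cores on opposite strands overlaps, and the capitals further along the SNRPA1 window are a CCAAT match on the other strand. The windows are chr20:2470740-2471039 (minus strand), chr15:101295199-101295498 (minus strand), chr6:34757255-34757554 (plus strand) and chr21:43107521-43107820 (minus strand).
SNRPB: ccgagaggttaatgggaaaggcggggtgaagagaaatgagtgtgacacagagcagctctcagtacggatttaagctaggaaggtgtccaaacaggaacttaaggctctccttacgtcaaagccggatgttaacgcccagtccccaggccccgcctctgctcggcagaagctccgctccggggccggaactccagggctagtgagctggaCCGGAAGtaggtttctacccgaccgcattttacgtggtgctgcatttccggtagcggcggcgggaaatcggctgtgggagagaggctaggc
SNRPA1: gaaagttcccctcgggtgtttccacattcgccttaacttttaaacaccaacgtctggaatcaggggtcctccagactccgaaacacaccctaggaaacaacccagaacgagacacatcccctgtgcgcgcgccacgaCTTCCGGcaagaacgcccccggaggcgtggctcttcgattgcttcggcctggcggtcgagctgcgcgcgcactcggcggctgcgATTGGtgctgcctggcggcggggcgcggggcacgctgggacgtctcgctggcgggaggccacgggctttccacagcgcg
SNRPC: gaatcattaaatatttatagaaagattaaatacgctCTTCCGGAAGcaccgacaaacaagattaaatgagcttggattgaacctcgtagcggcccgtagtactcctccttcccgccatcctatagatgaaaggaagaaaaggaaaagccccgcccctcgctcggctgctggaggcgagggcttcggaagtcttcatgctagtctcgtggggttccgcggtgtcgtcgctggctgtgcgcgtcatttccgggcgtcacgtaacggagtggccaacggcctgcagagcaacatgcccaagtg
U2AF1: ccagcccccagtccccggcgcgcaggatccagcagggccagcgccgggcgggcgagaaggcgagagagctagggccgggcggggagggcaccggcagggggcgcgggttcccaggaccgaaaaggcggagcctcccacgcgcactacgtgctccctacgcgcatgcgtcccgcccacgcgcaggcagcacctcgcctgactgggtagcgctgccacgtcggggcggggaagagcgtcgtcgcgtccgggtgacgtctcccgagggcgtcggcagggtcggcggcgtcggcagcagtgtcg

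Other spliceosome genes, which no prefix of the rule takes, were read from lists written with earlier results of these data known. Of 48 further core proteins 28 rose, 5 fell and 15 did not pass, with a median of 0.24, so that 58.3% rose and 10.4% fell against 33.3% and 41.3% of all tested genes. By TPM 9 rose and 20 fell, a share of 18.8% higher that is near the 14.3% of all genes and 41.7% lower against 62.1%. BUD31, a subunit of the activated spliceosome, rose 1.86-fold from 166 to 309 FPKM and PPIE, a cyclophilin of the same stage, rose 1.74-fold. SRRM2, a long scaffold protein of nuclear speckles, fell 2.37-fold from 25.5 to 10.7 FPKM, and SRRM1, its partner, fell from 22.9 to 15.2 FPKM. Of 10 genes of the minor spliceosome, which removes a rare class of introns, 6 rose and 2 fell (median 0.40). CENATAC rose 1.79-fold and ZCRB1 1.59-fold. RNPC3 was lower by 1.29-fold, and its difference of -0.30 was 0.07 after quantile normalization.

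Of 22 genes for snRNP assembly and import 13 rose, 5 fell and 4 did not pass, with a median of 0.22. Thus 59.1% rose and 22.7% fell, against 33.3% and 41.3% of all tested genes. By TPM 4 rose and 9 fell, 18.2% and 40.9% against 14.3% and 62.1% of all genes, and the share that rose is again near that background. SNUPN, the import adaptor for capped snRNAs, rose 1.77-fold from 17.3 to 30.7 FPKM. SMN1, which loads Sm rings onto snRNA, was at 71.5 and 124 FPKM and its near-identical copy SMN2 at 46.3 and 76.2, and since reads of these copies cannot be separated, neither value is certain alone. XPO1, the exporter of snRNA, fell 1.45-fold from 97.6 to 67.5 FPKM, and NCBP2, of the cap-binding complex, fell 1.21-fold.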

How the data were processed

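The authors deposited 1 table per library with FPKM values to 2 decimals, per the file headers. The submitters' processing notes name GRCh38.p13. Aligner, counter, annotation, strand handling and filters: not given in the sources used here. FPKM allows no count model. Depth is unknown, so no counting interval was computed. Libraries were grouped by title.

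Values were analysed as log2(FPKM + 1) for genes whose mean reached 1 FPKM, with limma 3.58.1 in R 4.3.3 (mean-variance trend, no covariate, 2-sided, Benjamini-Hochberg over all 12003 genes). Log2 differences understate changes at low levels because of the pseudocount, whereas folds divide mean FPKM values. The fit was tested on simulated data. Single values and ratios had an exact permutation test in SciPy 1.17.1.

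Transcript length was that of the principal transcript in GENCODE 29, matched by Entrez identifier (11965 of the tested genes). The length correction subtracts a robust loess curve (span 0.5) through each library's deviations from the mean of the 6 libraries. Other alternatives were a pseudocount of 0.1, no filter, a minimum mean FPKM of 5, TPM, median-ratio and quantile scaling, no trend, a replicate block, and leaving out each library. Identical values made up 0.450% to 0.783% of tested genes between libraries of a group. Members, lists and alternatives were chosen with earlier results of these data known. Values in every library were given for the Sm ring, per role for at most 2 members in each direction, by smallest adjusted p, and for members that went against most of their size class. SF3B1 and the within-library ratios were added after their values were seen. Of 19 members with exons that overlap a gene on the other strand, reads of the partner cannot be told apart if counting ignored strand. Exons of SNRPB, SNRPD3, PRPF18 and SNRPN overlap a gene on the same strand, where strand does not separate reads. Of the members, 1 is counted but not reported by name here.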

Additional observations from a re-analysis of the deposited data

How the results depend on the processing

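The lower pseudocount, no filter and no trend changed no call of the 55 members, SNRPN being added as higher with no filter (35 of 56), and the minimum mean FPKM of 5, which leaves 52 members, changed none of those. That filter gave 3577 genes higher and 3068 lower in all, and medians of 0.0452 for all genes and 0.46 for members. Scaling mattered more. By TPM, 22 members rose and 22 fell (median 0.0352), the medians of the small and large members were 0.21 and -0.12, and 6 large members rose and 10 fell. The other core genes had 9 higher and 20 lower (-0.12), the assembly genes 4 and 9 (-0.13), the minor spliceosome a median of 0.0486, and all genes 1716 higher and 7453 lower (-0.39). With median-ratio scaling 5 of 55 members fell, 2 of them small, against 34.7% of all genes. The medians were then 0.53 for members, 0.70 for small, 0.38 for large, 0.38 for other core, 0.35 for assembly genes (3 lower) and 0.0571 for all genes. After quantile normalization 5 of 22 large members fell (22.7%), below the 30.0% of all genes that fell. The medians were 0.31 for members, 0.45 for small, 0.18 for other core and 0.10 for all genes, and 3 assembly and 0 minor spliceosome genes fell. With the length correction 1 of 22 large members fell, against 35.1% of all genes. The medians were 0.30 for members, 0.27 for small, 0.36 for large, 0.19 for other core, 0.14 for minor spliceosome and 0.0098 for all genes, 3 assembly genes fell, and the small-minus-large change was -0.11.

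Listed first are named members that changed direction and were called as deposited, in the alternative, or in both. By TPM they were CDC5L (-0.35), LSM12 (-0.22), LSM5 (-0.12), LSM8 (-0.0051), PRPF38A (-0.0773), PRPF39 (-0.33), PRPF6 (-0.0045), SART3 (-0.31), SF1 (-0.30), SF3B3 (-0.34), SF3B4 (-0.15) and SNU13 (-0.27). After quantile normalization they were LSM11 (0.034), LSM12 (-0.0033), PRPF40B (0.35), SF1 (-0.17) and SF3B4 (-0.0103). With the length correction they were AQR (0.34), LSM11 (0.065), LSM8 (-0.12), PRPF8 (0.41), SF3B1 (0.32) and SNU13 (-0.22), and SF3A1 came to no difference (0.00). Other named members changed sign without a call in either setting. These were PRPF4 by TPM (-0.28), PRPF40B with the length correction (0.057), and AQR (0.12), PRPF4 (-0.0291) and SNU13 (-0.0744) after quantile normalization. With median-ratio scaling they were PRPF8 (0.0789), SNRPG (0.0782), SF3B1 (0.0259) and PRPF40B (0.0644). The cause was not tested, except that TPM by construction lowers siUSP32 relative to siControl libraries.

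Leaving out 1 library at a time gave 33 to 35 members higher, 8 to 9 lower and a median of 0.37 to 0.43. Of all genes 30.76% to 35.62% then rose and 37.96% to 42.35% fell. For the other core genes 5 to 9 fell, for the minor spliceosome 1 to 2 and for assembly genes 3 to 6. Only 1 minor spliceosome gene fell with no filter, with a minimum of 5, with median-ratio scaling, without the trend or with the length correction. The 9 other core genes that fell were without siUSP32 library 3, and 3 assembly genes without siControl library 3. With the replicate number as a block, 34 members rose and 9 fell (all genes 33.46% and 41.48%), AQR (-0.20) being added. Deviations of same-numbered libraries correlated at -0.0766, 0.0706 and 0.119, and those of differently numbered libraries at -0.158 to 0.1. So few libraries cannot tell whether the same number marks a shared batch, and the labels do not say.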
